A study of Mus musculus with 4 samples.

Results

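The solute carrier genes are described here in mouse embryonic 3T3 fibroblasts, an immortal line, after exposure to tumour necrosis factor (TNF), an inflammatory cytokine. The genes are those whose symbol begins with Slc and a digit, leaving out the glucose transporter genes Slc2a1 and Slc2a6, and whose probe set of highest mean log2 signal reached a signal of 102 on at least 1 of 4 arrays. Of 345 such genes named on the array, 111 met this rule, or 32.2%, and 234 stayed below it. Of all 18193 named genes on the array, 7311 reached the same signal, or 40.2%, and these 7311, the 111 included, are called genes of clear signal below. The signal chose the genes, so their clear signal is a description and not a finding. The ratios to basal were not used to choose them, but 17 of the 111 were below 102 on some array, and such a gene could enter through its highest array alone. Just inside the limit lay Slc35e4, Slc17a5 and Slc30a1, whose highest signals were 102.2, 102.3 and 105.7. Just outside lay Slc41a3, Slc35d1 and Slc19a2, at 101.3, 98.5 and 98.3. The 111 genes fall into 37 numbered families.

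All cells were grown in medium with serum, kept overnight in 0.5% serum, and then harvested untreated (basal) or after TNF for 0.5, 2 or 12 h. The labels give a TNF dose of 10 ng/ml for the 0.5 h and 12 h samples. For the 2 h sample they repeat the basal treatment without any dose, and that sample was placed at 2 h of TNF by its title. Each of the 4 groups has 1 array, so there is no spread between replicates, no test was run, and a difference cannot be set against biological error. No untreated array was taken at the same times in low serum, so the effect of TNF and that of the added time cannot be told apart. In bulk RNA, fewer cells of a kind and less RNA per cell also cannot be told apart. Of 9 fibroblast marker genes, 8 reached a signal of 102, Thy1 being the exception. None of 7 leukocyte, 4 endothelial and 4 epithelial markers measured did so. The adipocyte marker Fabp4 lay between 1450 and 1886 on the 4 arrays, while Adipoq reached at most 12.8.

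Solute carriers are membrane proteins that move small molecules down their gradient or couple them to sodium, protons or a second solute. They bring amino acids, sugars, vitamins and metals into the cell, exchange metabolites across the inner mitochondrial membrane, and feed nucleotide sugars to the Golgi. In fibroblasts, the taurine transporter and the myo-inositol transporter supply organic osmolytes that help set cell volume, the ASC-type exchangers carry neutral amino acids, and the CAT proteins carry arginine and other cationic amino acids. Arginine is the precursor of nitric oxide and of the polyamines.

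Promoter windows from RefSeq (build GRCm38.p6) are shown for 3 genes described below. Each runs from 250 bases before to 50 after a start site and is written 5′ to 3′ on the gene's strand. No window was found for Slc6a6, Slc7a2, Slc1a5 or Slc12a2. Slc5a3, chr16:92058072-92058371 on the plus strand, encodes the myo-inositol transporter, which fell at 12 h; capitals mark its 4 matches to GGGCGG, the core of GC boxes. Slc1a4, chr11:20332664-20332963 on the minus strand, encodes a neutral amino acid exchanger that was higher at 12 h; capitals mark its match to TGATGNAA, the core of amino acid response elements, which here runs on the opposite strand. Slc25a25, a mitochondrial ATP-magnesium carrier gene that rose at 0.5 h, has 3 start sites in RefSeq; the window of 1 of them, chr2:32424017-32424316 on the minus strand, is shown, with capitals on its match to the cAMP response element TGACGTCA.
Slc5a3: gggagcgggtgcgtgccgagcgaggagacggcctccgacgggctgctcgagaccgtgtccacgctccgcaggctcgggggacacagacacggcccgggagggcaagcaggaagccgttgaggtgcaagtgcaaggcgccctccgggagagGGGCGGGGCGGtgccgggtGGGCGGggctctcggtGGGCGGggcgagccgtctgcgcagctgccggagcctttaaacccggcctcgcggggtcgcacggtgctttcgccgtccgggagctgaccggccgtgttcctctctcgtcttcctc
Slc1a4: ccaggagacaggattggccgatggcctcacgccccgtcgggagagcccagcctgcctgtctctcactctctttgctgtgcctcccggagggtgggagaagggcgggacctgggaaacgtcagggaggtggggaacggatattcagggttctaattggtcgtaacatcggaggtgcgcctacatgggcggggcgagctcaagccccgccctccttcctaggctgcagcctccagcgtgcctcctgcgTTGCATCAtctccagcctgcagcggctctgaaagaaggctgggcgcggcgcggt
Slc25a25: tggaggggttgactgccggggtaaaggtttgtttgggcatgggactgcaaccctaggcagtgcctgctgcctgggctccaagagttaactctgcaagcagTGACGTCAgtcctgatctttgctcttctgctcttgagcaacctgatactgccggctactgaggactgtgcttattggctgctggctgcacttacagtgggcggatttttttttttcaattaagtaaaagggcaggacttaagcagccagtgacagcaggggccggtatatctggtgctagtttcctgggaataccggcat

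Of the 111 genes, 91 had at least 1 promoter window, with 122 windows in all. Both strands were searched, and copies that overlap, as the first 2 in Slc5a3 do, were counted separately. GGGCGG stood in 35.7% of all 32851 windows and in 88 of the 122. The 122 belong to genes chosen for signal, and windows of all genes of clear signal were not counted apart. Whether the difference goes with signal or with the solute carriers was not tested. TGATGNAA stood in 3.97% of all windows and in 3 of the 122, those of Slc1a4, Slc49a4 and Slc50a1. TGACGTCA stood in 1.79% and in 3 of the 122, in Slc25a25, Slc25a36 and Slc38a6; the other 2 windows of Slc25a25 had no match. The NF-kB consensus stood in 8.46% of all windows and in 10 of the 122. The core TGGAAA of the tonicity response element stood in 21.4% and in 14 of the 122, and the Slc5a3 window had 0 matches. A match describes these letters only and says nothing of binding.

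The arrays differed slightly in level, and all values below are on the deposited scale. The median log2 ratio to basal of the 7311 genes of clear signal was -0.049, -0.12 and -0.21 after 0.5, 2 and 12 h, and a gene at -0.21 at 12 h therefore stood with the middle of the array. The 111 solute carrier genes had medians of -0.041, -0.087 and -0.14 at those times. Their 10th to 90th percentiles ran from -0.24 to 0.17 at 0.5 h, from -0.35 to 0.14 at 2 h and from -0.61 to 0.25 at 12 h. Those of all genes of clear signal ran from -0.27 to 0.17, from -0.40 to 0.15 and from -0.64 to 0.19. With quantile normalization or loess the solute carrier median at 12 h was 0.060 or 0.075, so the sign of so small a value rests on scaling.

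**Figure D1:**
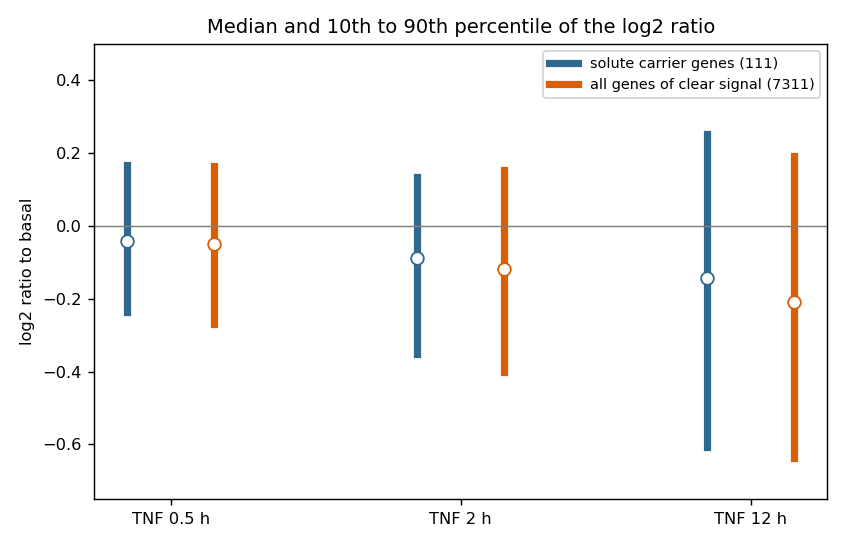
Median (open circle) and 10th to 90th percentile (bar) of the log2 ratio to basal on the y axis, for the 111 solute carrier genes (left bar) and all 7311 genes of clear signal (right bar), at 3 times of TNF on the x axis. The bars widen with time in both sets, and the medians at 12 h are -0.14 and -0.21.

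With 1 array a group, the agreement between probe sets gives a sense of measurement error within an array. For 38 of the 111 genes, 55 further probe sets also reached 102. They differed from the probe set used by a median of 0.13, 0.15 and 0.17 (log2) at 0.5, 2 and 12 h, and the 90th percentile of this difference was 0.35, 0.41 and 0.56. The largest difference at 12 h was 0.87, for Slc6a6. Among all genes of clear signal with a mean signal of 100 to 200, the scaled median absolute deviation of the ratio was 0.21, 0.25 and 0.33 at the 3 times; above 1000 it was 0.073, 0.11 and 0.20. Small ratios of single genes thus lie within this scatter. A gene is said below to have risen or fallen if its ratio was at least 2-fold, with values below a floor of 9.08, the 30th percentile over all arrays, set to it; other differences are given as values only.

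**Figure D2:**
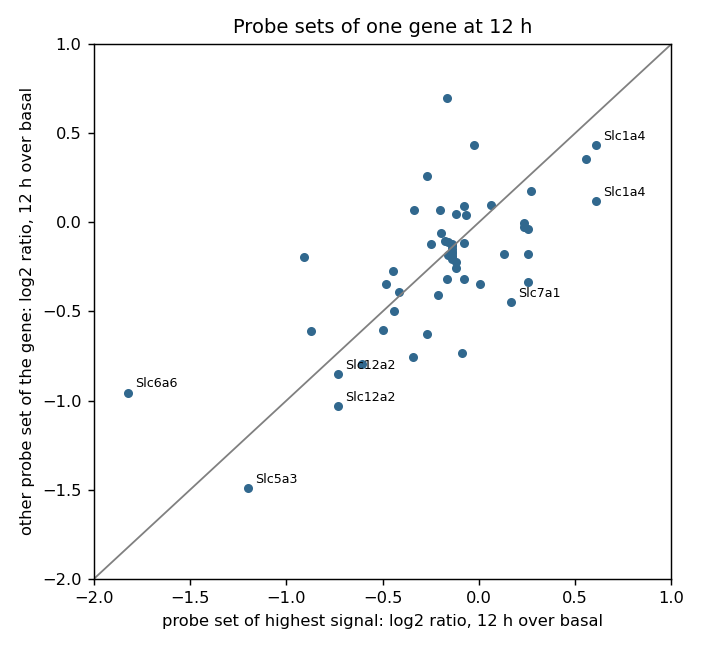
Log2 ratio of 12 h TNF over basal in the probe set used for each gene (x axis) and in the same gene's other probe sets that reach a signal of 102 (y axis, 55 probe sets of 38 genes), with the line of equality. Slc6a6, Slc5a3 and Slc12a2 lie at the lower left on both axes, and Slc7a1 has values of opposite sign.

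Few solute carrier genes passed 2-fold, and none did so upward at 2 or 12 h. At 0.5 h, 1 of 111 rose, against 0.438% of all 7311 genes of clear signal, and 1 fell, against 0.0684%. At 2 h none rose (0.821% of all) and 1 fell (0.328%). At 12 h none rose (1.03%) and 3 fell, or 2.70% of the 111 against 2.64% of all, a share near the background. The genes were Slc25a25 upward at 0.5 h, Slc25a14 downward at each time, and Slc6a6 and Slc5a3 downward at 12 h. With quantile normalization or loess, Slc7a2 and Slc1a5 passed 2-fold upward at 12 h and Slc5a3 came just short of it downward (-0.97 and -0.98), so that 2 genes were higher and 2 lower. On those scales 108 and 107 of all genes of clear signal were higher and 90 and 87 lower by 2-fold, against 75 and 193 as deposited.

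A 1.5-fold limit, a log2 ratio of 0.585, took in 1 higher and 3 lower at 0.5 h (0.944% and 0.78% of all genes of clear signal), and 1 higher and 5 lower at 2 h (1.63% and 3.1%). At 12 h it took in 3 higher and 12 lower (2.45% and 12.4%), or 2.70% and 10.8% of the 111, shares again near the background. The lower counts depended on scaling: with centring, quantile normalization or loess 2 genes, Slc25a14 and Slc2a8, were lower at 0.5 h, and the same 2 at 2 h, where the count over all genes was 227 as deposited and 128, 119 or 118 so scaled. The split at 12 h also depended on it: it was 6 higher and 6 lower with median centring and 6 higher and 5 lower with quantile normalization or loess. For all genes of clear signal the split was 179 and 903 as deposited, 285 and 498 after centring, 355 and 389 after quantile normalization, 363 and 372 after loess. Slc1a4, Slc1a5 and Slc7a2 were higher and Slc6a6, Slc5a3, Slc25a14, Slc25a32 and the adaptor gene Slc9a3r2 were lower by 1.5-fold at 12 h under each of these 4 scales. Slc1a5 was short of 1.5-fold with signals raised to the 75th percentile of all values (0.40) and with the mean of its probe sets (0.44), and Slc1a4 with the mean of its probe sets (0.39). Among the lower genes, Slc25a14 was also short of 1.5-fold at 12 h with signals raised to that percentile (-0.40).

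**Figure D3:**
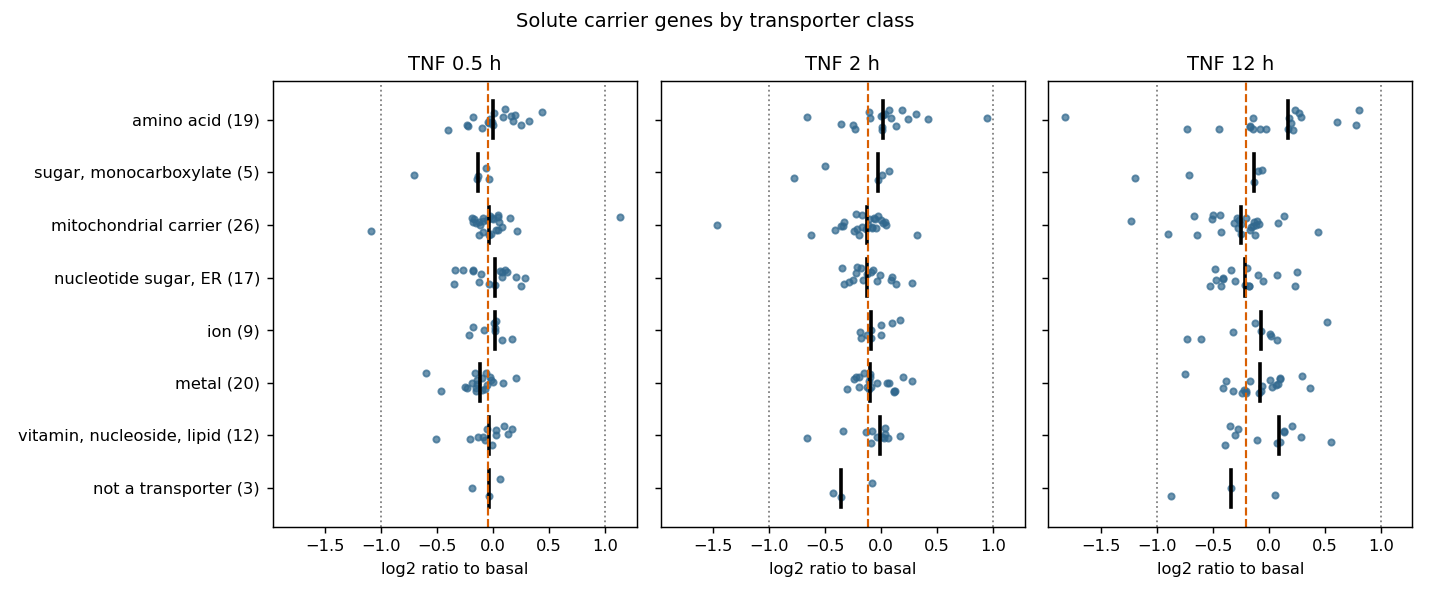
Log2 ratio to basal (x axis) of each of the 111 solute carrier genes at 3 times of TNF, grouped by transporter class (rows, number of genes in brackets). Black bars are class medians, the dashed line is the median of all 7311 genes of clear signal, and dotted lines mark 2-fold; the amino acid transporters have the highest class median at 12 h, 0.17, and also the lowest single gene, Slc6a6 at -1.82.

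The taurine transporter gene Slc6a6 and the myo-inositol transporter gene Slc5a3 were the lowest of the 111 at 12 h besides Slc25a14. Slc25a14 also passed 2-fold and is described with the mitochondrial carriers. Slc6a6 and Slc5a3 stand in different transporter classes. They are described together as transporters of organic osmolytes, a pairing made with earlier results of these data known. Slc6a6 (1437149_at), the sodium- and chloride-dependent taurine transporter, had signals of 1308 (basal), 1313 (0.5 h), 829 (2 h) and 369 (12 h). It was at the basal level at 0.5 h, lower at 2 h by 0.66 (log2 ratio -0.66), and fell 3.54-fold at 12 h, the 16th lowest ratio of the 7311 genes. Its other probe set of clear signal, 1421346_a_at, gave 385, 368, 388 and 198 in the same order, a log2 ratio of -0.96 at 12 h and of 0.010 at 2 h. The 2 weaker probe sets of the gene gave -1.15 and -0.93 at 12 h, so all 4 were lower than basal at that time, whereas at 2 h they ranged from -0.66 to 0.010. Slc5a3 (1435484_at), the sodium-coupled myo-inositol transporter, had signals of 1202 (basal), 1171 (0.5 h), 846 (2 h) and 523 (12 h). Its ratio was -0.51 at 2 h, and it fell 2.30-fold at 12 h, though with the mean of its probe sets the log2 ratio was -0.86, short of 2-fold. A second probe set of clear signal, 1440227_at, gave 220, 178, 118 and 78.1, with a log2 ratio of -1.49 at 12 h, while the weak 1422170_at, at 11.3 in basal cells, gave 0.10. On the probe sets used, both genes were near basal at 0.5 h and lowest at 12 h.

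Genes that are known to act with these transporters were taken from lists, of which only members of clear signal were counted. Of 4 genes of the hypertonic response none passed 2-fold, with a median of -0.41 at 12 h; Nfat5, the transcription factor of that response, had signals of 296 (basal), 278 (0.5 h), 219 (2 h) and 199 (12 h) (log2 ratio -0.57 at 12 h). Of 3 genes of the sodium pump, which builds the sodium gradient that these transporters use, 1 fell at 12 h and none rose, where 2.64% of all genes of clear signal fell. It was Atp1b1, the gene of a beta subunit, at 593 at 12 h against 1245 in basal cells, 2.10-fold lower (log2 ratio -1.07, beside a median of -0.21 for all genes of clear signal).

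Of 9 ion transporters none passed 2-fold on the probe sets used, and the lowest at 12 h was Slc12a2. Slc12a2 (1417622_at), the sodium-potassium-chloride cotransporter, had signals of 926 (basal), 944 (0.5 h), 851 (2 h) and 558 (12 h), a log2 ratio of -0.73 at 12 h. Its other 2 probe sets, both of clear signal, gave -1.03 and -0.85, so all 3 pointed the same way and 1 passed 2-fold. The potassium-chloride cotransporter genes Slc12a4 and Slc12a7 gave 0.018 and -0.32 at 12 h. Slc4a4, a sodium bicarbonate cotransporter, gave -0.61 on the probe set used and -0.80 on the other of clear signal. Slc20a1 (1448568_a_at), a sodium-phosphate cotransporter, had signals of 970 (basal), 1089 (0.5 h), 1092 (2 h) and 1392 (12 h) (log2 ratio 0.52), but its 2 weaker probe sets gave -0.023 and -0.58. Its relative Slc20a2 gave 0.006. The class of 9 ion transporters had a median of -0.071 at 12 h, which became 0.082 with centring, 0.14 with quantile normalization and 0.15 with loess. On the deposited scale this median was the value of Slc17a5. That gene is of the family of vesicular and lysosomal organic anion transporters and was counted in this class.

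**Figure D4:**
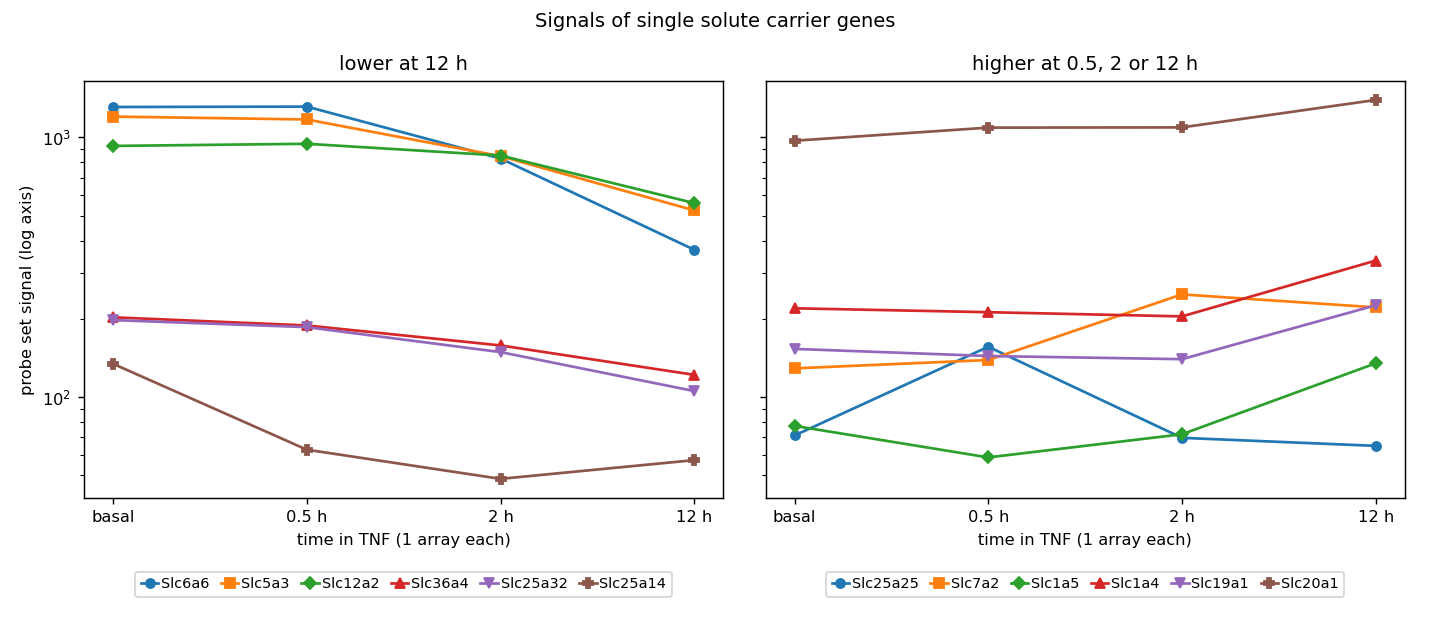
Signal of the probe set used (y axis, log scale) for 6 genes lower at 12 h (left) and 6 genes higher at 0.5, 2 or 12 h (right), from 1 array each of basal cells and of cells after 0.5, 2 and 12 h of TNF. Slc6a6 and Slc5a3 are at 369 and 523 at 12 h, Slc25a25 peaks at 0.5 h and Slc7a2 at 2 h; levels of different genes come from different probes and are not compared.

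Amino acid transporters formed a class of 19 genes of clear signal among 65 on the array, and none rose by 2-fold on the deposited scale. The class median was -0.004 at 0.5 h, 0.012 at 2 h and 0.17 at 12 h, and at 12 h 16 of the 19 lay above the median of all genes of clear signal. The class median at 12 h was 0.17 under each other floor and 0.18 with the mean of all probe sets. With centring, quantile normalization or loess it was 0.32, 0.39 or 0.39, beside -0.056, 0.0068 or 0.019 for all genes of clear signal. These scalings raised the ratios at 12 h, so they could not have brought a median above 0 below it. The highest at 12 h was Slc1a5 (1416629_at), the exchanger ASCT2 that brings glutamine into cells, with signals of 77.5 (basal), 58.6 (0.5 h), 72.0 (2 h) and 135 (12 h), a log2 ratio of 0.80. Only its 12 h signal was above 102. Its weak second probe set gave 0.075. Slc1a4 (1456003_a_at), the related exchanger ASCT1, had 220 (basal), 212 (0.5 h), 205 (2 h) and 335 (12 h), a log2 ratio of 0.61, and its other 2 probe sets gave 0.43 and 0.12. The glutamate transporter gene Slc1a6, of the same family, gave 0.28 at 12 h. The family has 7 named genes on the array, of which 3 were of clear signal. On the probe sets used, these were all above basal at 12 h. Slc1a5, however, entered the set through its 12 h array, so its direction does not add to that count.

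Slc7a2 (1436555_at), the cationic amino acid transporter CAT2, was the highest of the 111 genes at 2 h. Its signals were 129 (basal), 139 (0.5 h), 249 (2 h) and 222 (12 h). The log2 ratios were 0.11, 0.95 and 0.78, and the 2 h ratio ranked 65th from the top of 7311 genes. At 2 h its 3 weak probe sets gave 0.66, 0.69 and 0.83, the same direction as the strong one. With centring, quantile normalization or loess its 2 h ratio was 1.04, 1.06 or 1.07 and passed 2-fold. The constitutive arginine transporter gene Slc7a1 (1454991_at) had 779 (basal), 668 (0.5 h), 779 (2 h) and 875 (12 h), but its second strong probe set gave -0.45 at 12 h against 0.17 for the first, so its direction is not settled.

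Heteromeric transporters pair a heavy chain with a light chain, and their genes passed 1.5-fold at no time. Slc3a2, the heavy chain, gave log2 ratios of 0.17, 0.24 and 0.21 at 0.5, 2 and 12 h. The light chain genes Slc7a5 (LAT1, for large neutral amino acids) and Slc7a6 gave 0.18 and 0.27 at 12 h. Slc38a2, the sodium-coupled system A transporter, gave -0.17, with signals between 1616 and 1921 on the 4 arrays. Of its relatives, Slc38a6, Slc38a7 and Slc38a10 gave -0.17, 0.23 and -0.078. In the family of Slc6a6, the creatine transporter gene Slc6a8 gave -0.14 and the glycine transporter gene Slc6a9 gave -0.024 at 12 h, so the fall of Slc6a6 was not shared by the other 2 members of clear signal.

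Lysosomal and proton-coupled amino acid transporters differed among themselves. Slc36a4 (1455249_at) had 203 (basal), 189 (0.5 h), 158 (2 h) and 122 (12 h), a log2 ratio of -0.74 on its sole probe set, while Slc36a1, which exports small amino acids from lysosomes, gave -0.14. Slc66a1, the lysosomal exporter of cationic amino acids, had its highest ratio, 0.44, at 0.5 h, and Slc66a2 gave 0.42 at 2 h and -0.45 at 12 h. Among 15 genes of clear signal of the amino acid response, the programme that cells switch on when amino acids are short, 1 rose at 12 h, none fell, and the median was 0.29. That gene was Trib3, at 583 at 12 h against 242 in basal cells. Of all genes of clear signal 1.03% rose and 2.64% fell at 12 h. Asns, asparagine synthetase, stood at 2647 at 12 h against 1570 in basal cells, a log2 ratio of 0.75. Trib3 and Asns were the only 2 of the 15 that were higher by 1.5-fold at 12 h. Atf4 gave 0.10, and the lowest were Ddit4 at -0.17 and Chac1 at -0.064.

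**Figure D5:**
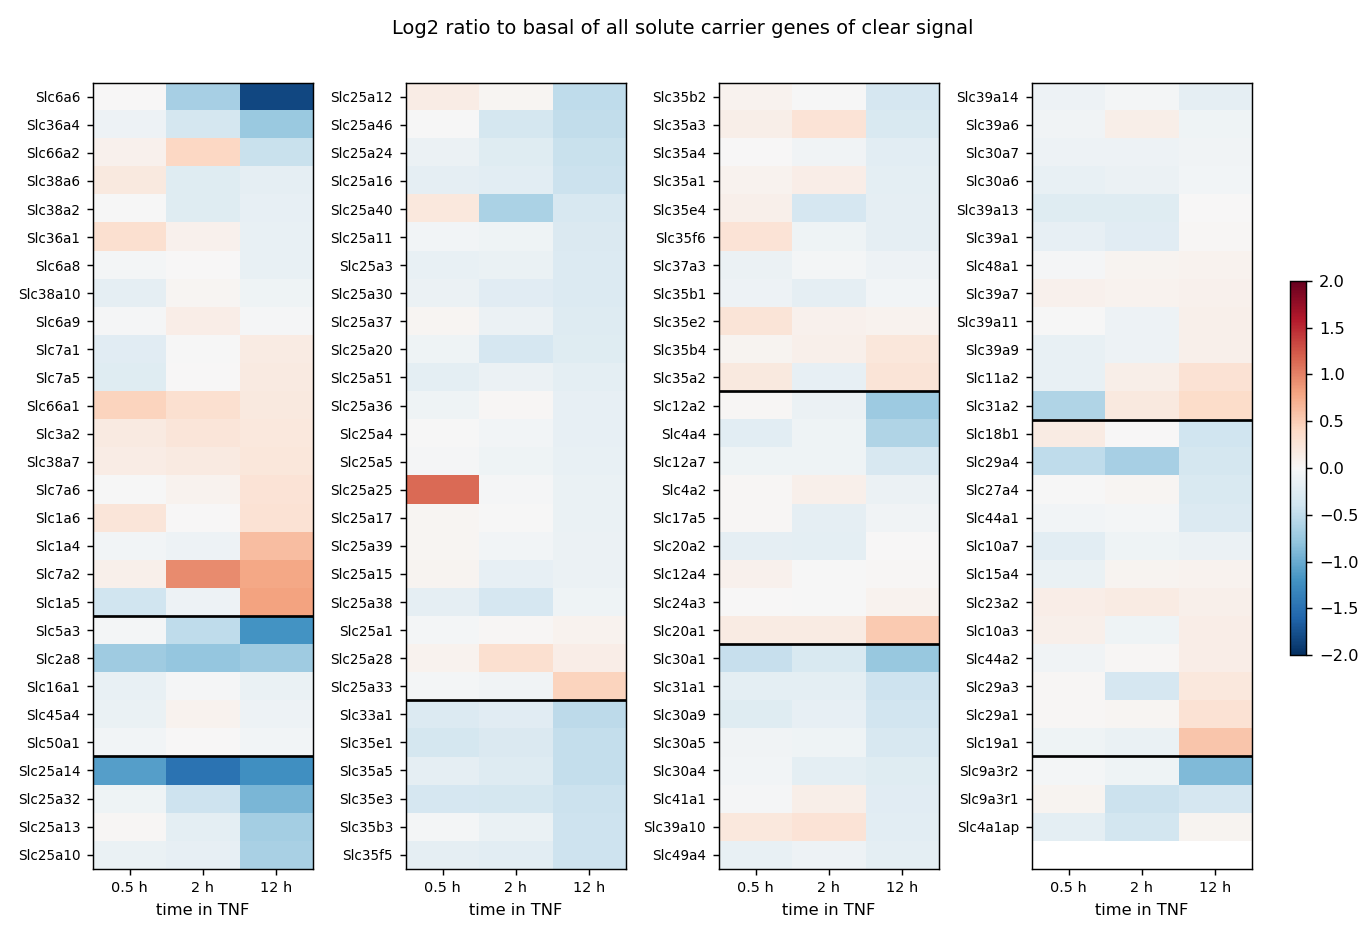
Log2 ratio to basal (colour) of all 111 solute carrier genes at 0.5, 2 and 12 h of TNF (columns), ordered within each class by the 12 h value; black lines separate, from top left, amino acid, sugar and monocarboxylate, mitochondrial, nucleotide sugar and endoplasmic reticulum, ion, metal, vitamin and organic solute transporters, and 3 genes that are not transporters. Most squares are pale; Slc6a6, Slc5a3 and Slc25a14 are darkest below basal at 12 h and Slc25a25 darkest above it at 0.5 h.

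Mitochondrial carriers were the largest class, with 26 genes of clear signal. Both genes that passed 2-fold at 0.5 h were of this class, 1 upward and 1 downward. Of all genes of clear signal, 0.438% rose and 0.0684% fell at that time. Slc25a25 (1424735_at), which exchanges ATP-magnesium for phosphate across the inner membrane, had 71.2 (basal), 156 (0.5 h), 69.7 (2 h) and 64.9 (12 h). On the probe set used, it rose 2.20-fold at 0.5 h alone. Only that array was above 102, so the gene entered the set through the array where it was high. Its 2 weak probe sets had basal signals below the floor, 5.59 for 1447856_x_at and 7.16 for 1454284_at, so their ratios rest on the floor. The first was highest at 0.5 h (34.7), the second at 2 h (23.1, against 12.9 at 0.5 h). At 2 h they gave log2 ratios of 1.54 and 1.35, where the probe set used gave -0.030, so the time course differed between probe sets. Slc25a14 (1417154_at), a carrier of the uncoupling protein branch, had 134 (basal), 62.8 (0.5 h), 48.5 (2 h) and 57.2 (12 h). It fell 2.14-fold, 2.77-fold and 2.35-fold. The gene has 1 probe set, only its basal signal was above 102, and these ratios share that basal array. With signals raised to the 75th percentile of all values, neither Slc25a25 (0.62) nor Slc25a14 (-0.40) passed 2-fold.

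Carriers of central metabolism differed among themselves at 12 h. Slc25a4 and Slc25a5, which exchange ADP for ATP, gave -0.16 and -0.14 at 12 h, and Slc25a3, the phosphate carrier, gave -0.28, beside -0.21 for the middle of the array. Slc25a1, the citrate carrier, gave 0.076 and Slc25a39, which serves glutathione import, -0.12. The aspartate-glutamate carrier genes Slc25a12 and Slc25a13 gave -0.51 and -0.67, and the dicarboxylate carrier gene Slc25a10 gave -0.64. Slc25a32 (1453149_at), the mitochondrial folate carrier, had 198 (basal), 186 (0.5 h), 149 (2 h) and 106 (12 h), a log2 ratio of -0.91. Its second probe set of clear signal gave -0.19, a smaller difference. Slc25a40, a carrier linked to mitochondrial glutathione, had 234 (basal), 271 (0.5 h), 152 (2 h) and 189 (12 h), and was lower by 1.5-fold at 2 h (-0.63) but not after centring (-0.53), quantile normalization (-0.51) or loess (-0.50). The highest ratio of the class at 12 h, 0.44, was that of Slc25a33, a pyrimidine nucleotide carrier, which entered the set through its 12 h signal alone (123 at 12 h against 91.0 in basal cells). The class median was -0.25 at 12 h, close to the -0.21 of all genes of clear signal. By comparison, the 21 mitochondrial import genes of clear signal had a median of -0.17 with none past 2-fold.

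Sugar and monocarboxylate transporters numbered 5, besides Slc5a3 the genes Slc2a8, Slc16a1, Slc45a4 and Slc50a1. Slc2a8 (1450628_at), an intracellular glucose transporter, had 193 (basal), 118 (0.5 h), 113 (2 h) and 118 (12 h), with log2 ratios of -0.71, -0.78 and -0.71 on its single probe set. The 3 TNF arrays lay close together and below basal. Slc16a1, which exports lactate with a proton, gave -0.13 at 12 h, and its partner chain Bsg gave 0.12. Slc45a4 and Slc50a1 gave -0.099 and -0.062.

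Among 20 metal transporters of clear signal, out of 34 on the array, none passed 2-fold at any time. Slc30a1 (1436164_at), the zinc exporter of the plasma membrane, had 106 (basal), 76.6 (0.5 h), 85.3 (2 h) and 62.6 (12 h). Only its basal signal was above 102. Its log2 ratios were -0.47, -0.31 and -0.75, and its weaker probe set gave -0.71, 0.053 and -0.73. The other 5 members of its family, most of which move zinc into vesicles and organelles, ranged from -0.39 (Slc30a9) to -0.060 (Slc30a6) at 12 h. The 8 ZIP importers ranged from -0.21 (Slc39a10) to 0.10 (Slc39a9). Slc39a14, a zinc and iron importer known from inflammation in liver, had 349 (basal), 324 (0.5 h), 340 (2 h) and 309 (12 h), with log2 ratios of -0.10, -0.038 and -0.17. Of its weaker probe sets, 1 gave 0.30, 0.44 and 0.37 and another -0.51, -0.10 and -0.035. In the same cells Mt2, a zinc-binding metallothionein, stood at 1239 at 12 h against 289 in basal cells. Its relative Mt1 stood at 816 against 592, a log2 ratio of 0.46. Of 7 metal response genes of clear signal 2 rose at 12 h, Mt2 and Lcn2, where 1.03% of all genes of clear signal rose. Lcn2 reached 102 only on the 12 h array (158 at 12 h against 11.1 in basal cells) and so was counted through its rise.

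Among copper and iron transporters, Slc31a2, a copper transporter of internal membranes, had 82.2 (basal), 54.3 (0.5 h), 93.9 (2 h) and 106 (12 h), a log2 ratio of -0.60 at 0.5 h. Its signal was above 102 at 12 h alone, and the 0.5 h ratio was short of 1.5-fold after centring, quantile normalization and loess (-0.55 in each). Slc31a1, the main copper importer, gave -0.41 at 12 h. Slc11a2, which brings ferrous iron into the cell, gave 0.30 at 12 h, from a signal of 115 at 12 h against 93.9 in basal cells. Only its 12 h signal was above 102, so the gene entered the set through the array where it was high. Slc48a1, a haem transporter, gave 0.063.

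Transporters of nucleotide sugars and of the endoplasmic reticulum numbered 17, and none differed from basal by 1.5-fold at any time on the probe sets used. Their 12 h values ran from -0.52 for Slc33a1, which carries acetyl-CoA into the endoplasmic reticulum, to 0.25 for Slc35a2, the UDP-galactose transporter. The other probe sets of Slc35a2 with clear signal gave -0.33, -0.18 and -0.039 at 12 h, so its direction is not settled. Slc35a1, for CMP-sialic acid, gave -0.20, and Slc35b2, for the sulphate donor of the Golgi, gave 0.078, -0.011 and -0.34 at the 3 times. Its second probe set of clear signal, 1429007_at, gave -0.67, -0.45 and -0.76, past 1.5-fold at 0.5 and 12 h. The class median at 12 h was -0.21, equal to that of all genes of clear signal at this precision.

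Of 12 transporters of vitamins, nucleosides, lipids and other organic solutes, none passed 2-fold. Slc19a1 (1420138_at), the reduced folate carrier, had 153 (basal), 144 (0.5 h), 140 (2 h) and 226 (12 h), a log2 ratio of 0.56, and its second probe set of clear signal gave 0.35. It was higher at 12 h while the mitochondrial folate carrier gene Slc25a32 was lower on the probe set used (-0.91). The second probe set of Slc25a32 with clear signal gave -0.19, near the -0.21 of all genes of clear signal, so this contrast rests on 1 probe set of Slc25a32. Slc29a1, the equilibrative nucleoside transporter ENT1, gave 0.28 at 12 h, and Slc29a4, above 102 in basal cells alone, gave -0.51, -0.67 and -0.34 at the 3 times. Slc44a2 and Slc44a1, choline transporter-like genes, gave 0.13 and -0.28, the fatty acid transport gene Slc27a4 gave -0.30, and the ascorbate transporter gene Slc23a2 gave 0.10. The class median was 0.086 at 12 h on the deposited scale, and -0.024 with the mean of all probe sets of each gene.

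Some genes with solute carrier symbols encode other proteins. Slc9a3r1 and Slc9a3r2 encode PDZ adaptors that hold sodium-proton exchangers at the membrane, and Slc4a1ap encodes a protein that binds an anion exchanger. Slc9a3r2 (1439368_a_at) had 156 (basal), 152 (0.5 h), 148 (2 h) and 85.0 (12 h), a log2 ratio of -0.88, and its 5 other probe sets gave values from -1.78 to -0.37. All 6 were lower than basal at 12 h. Slc9a3r1 and Slc4a1ap gave -0.34 and 0.053, but a second probe set of Slc9a3r1 with clear signal gave 0.070.

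Other membrane transport systems were counted in the same way. Of 15 ABC transporter genes of clear signal 1 rose at 2 h and at 12 h, and none fell. That gene was Abca1, the cholesterol exporter, with signals of 14.5 (basal), 25.4 (0.5 h), 39.7 (2 h) and 104 (12 h). It reached 102 only at 12 h, so it was counted among the 15 through the array where it was high. Of all genes of clear signal, 0.821% rose at 2 h and 1.03% at 12 h. Of 15 genes of the vacuolar proton pump, none passed 2-fold at any time, with a median of -0.18 at 12 h.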

How the data were processed

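RNA of 4 samples was measured on Affymetrix Mouse Genome 430 2.0 arrays from 8 µg of total RNA by standard Affymetrix procedures, per the labels. The deposited values are intensities on a linear scale, 1 per probe set and array (45101 probe sets); how the authors computed and scaled the signal is not given in the sources used here. Genes were named from GEO's platform annotation, which gave 1 gene for 34945 probe sets, several for 932 and none for 9224; only the first kind was used. For each gene the probe set of highest mean log2 signal was taken. Values below 9.08, the 30th percentile over all arrays, were set to it, and log2 ratios to basal were taken with no further scaling. The number of arrays limits the precision, and 0 tests were run.

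Genes to be named were set by a rule: members past 2-fold, the 12 largest increases and decreases at each time, the 3 of highest signal in each class, the main amino acid and metal families, the 3 genes on either side of the signal limit, and list genes past 2-fold; the other genes named were chosen after their values were seen. Members, classes and lists were chosen with earlier results of these data known, and Slc4a1ap was moved to the genes that are not transporters after the values were seen. Other floors, scalings (limma 3.58.1 in R 4.3.3), probe set means and fold limits were tried. The computation was tested on simulated data.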

Additional observations from a re-analysis of the deposited data

How the results depend on the processing

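Each group has 1 array, so leaving out a replicate was not possible, and no paired analysis was possible because no group has a second array. With signals raised to the 75th percentile of all values, 0 solute carrier genes were higher and 0 lower by 2-fold at 0.5 h, and 0 were lower at 2 h. Under a 3-fold limit the counts were 0 and 0 at 0.5 h, 0 lower at 2 h and 1 lower (Slc6a6) at 12 h. Under a 1.5-fold limit 3 were lower at 0.5 h, 1 was higher and 5 were lower at 2 h, and 3 were higher and 12 lower at 12 h. Median centring, quantile normalization and loess each gave 1 gene higher at 2 h (Slc7a2); quantile normalization gave 2 higher at 12 h and loess also 2. The mean of all probe sets gave 2 lower at 2 h, the second being Slc25a15, whose weak probe set was at 8.20 at 2 h against 37.7 in basal cells. The median log2 ratio of the 111 genes was 0.025 (quantile) and 0.036 (loess) at 2 h, and 0.010 (centring), 0.060 (quantile) and 0.075 (loess) at 12 h. Slc6a6 was past 2-fold downward at 12 h under all 7 alternatives, from -1.82 to -1.21, and no value past 2-fold changed sign. Low signals and the lack of replicates limit genes near 102.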
